A study of Mus musculus with 6 samples.

Results

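Metalloproteinases and their inhibitors were followed in melanocyte stem cells, which replenish the pigment cells of growing hair, sorted from the skin of male mice. The members were every gene whose symbol is Mmp, Adam, Adamts or Timp followed by digits and at most 1 letter. The RefSeq gene table lists 80 such genes, and 79 of them had a probe among the 21368 genes named on the arrays (Mmp27 had none). One genotype was wild type (WT, 3 arrays), and the other was K14-SCF Tg (3 arrays), a transgenic strain in which basal keratinocytes make stem cell factor from the keratin 14 promoter; this ligand activates KIT on pigment cells. The promoter thus acts in the epithelium around the pigment cells. All 6 samples are positive for a green fluorescent protein and low in side scatter. The mice's age, the source of the fluorescence and any pooling of animals are not given in the sources used here, so a p-value here reflects only how far these samples scatter, and that scatter may be technical.

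Matrix metalloproteinases (MMPs) and ADAMTS proteases are secreted or membrane-bound zinc enzymes that cut collagens, proteoglycans and other matrix proteins. ADAM proteins are membrane-anchored relatives, and several of them release the outer parts of growth factors and receptors from the cell surface. Most are made as inactive precursors, and the tissue inhibitors of metalloproteinases, encoded by the Timp genes, bind their active sites. Mice without Adamts20 have the belted coat with a white band, and Adamts9, its close relative, acts with it on the proteoglycan versican.

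A level is given here as log2 of the ratio of background-corrected signal to the 75th percentile of that array, and a log2 fold change is K14-SCF Tg minus WT. Levels of different genes come from different probes and are not compared. Each gene is represented by its brightest tested probe. An array had 43636 to 48520 of its 55681 probes well above background (78.37% to 87.14%), and 0 were saturated. All 9 melanocyte markers listed, among them Dct, Tyr, Mlana, Sox10 and Kit, were well above background on all 6 arrays. The log2 of their summed linear levels was 8.13 to 8.52 in WT and 8.07 to 8.33 in Tg. Of these 9, 3 had positive and 6 negative log2 fold changes (median -0.02), and 1 was lower and 0 higher at an unadjusted p under 0.05. That was the receptor gene Ednrb, at -0.65 (SE 0.21) at its brightest probe, where the genotypes did not overlap. The slide of WT replicate 1 held no other array of the series, and both replicates numbered 3 were in row 2 of the second slide, with the rest in row 1. The sum of markers of fibroblasts, a neighbouring cell type of the dermis, lay apart by genotype. Of 13 such markers, all tested, 10 had negative and 3 positive log2 fold changes (median -1.59, against -0.01 over all genes). At an unadjusted p under 0.05, 5 were lower and 0 higher. The genotypes did not overlap in 4 markers lower in Tg and 1 higher, and overlapped in the rest. The log2 of the summed linear levels of the 13 ranged from 4.88 to 6.22 in WT and from 3.52 to 4.54 in Tg, without overlap. In a sorted bulk sample, fewer cells of a type and less RNA per cell cannot be told apart.

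The results turn on Adamts2, Mmp3, Adamts9 and Adamts12, the 4 members with an unadjusted p under 0.05, so the 250 bases before their start sites are shown first, 5′ to 3′, from RefSeq (build GRCm38.p6). Capitals mark a match to TGANTCA. This pattern takes in TGACTCA and TGAGTCA, the letters of the AP-1 site that FOS and JUN proteins bind, and also TGAATCA and TGATTCA.
Adamts2 (chr11:50601835-50602084, plus strand): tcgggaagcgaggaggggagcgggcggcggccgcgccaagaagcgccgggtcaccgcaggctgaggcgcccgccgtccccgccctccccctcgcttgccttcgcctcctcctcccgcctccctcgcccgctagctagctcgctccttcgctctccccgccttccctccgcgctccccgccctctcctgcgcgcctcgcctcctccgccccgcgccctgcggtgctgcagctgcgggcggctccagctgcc
Mmp3 (chr9:7445572-7445821, plus strand): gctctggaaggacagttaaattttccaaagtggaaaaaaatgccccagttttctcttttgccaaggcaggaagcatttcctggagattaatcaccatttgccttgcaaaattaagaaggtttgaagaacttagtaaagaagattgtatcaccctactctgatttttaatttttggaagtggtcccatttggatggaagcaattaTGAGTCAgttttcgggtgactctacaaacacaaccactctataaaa
Adamts9 (chr6:92943535-92943784, minus strand): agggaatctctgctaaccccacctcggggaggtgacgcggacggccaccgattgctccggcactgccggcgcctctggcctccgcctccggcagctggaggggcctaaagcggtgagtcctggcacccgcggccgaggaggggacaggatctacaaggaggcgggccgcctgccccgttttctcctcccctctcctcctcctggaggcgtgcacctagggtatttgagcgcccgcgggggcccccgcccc
Adamts12 (chr15:11064523-11064772, plus strand): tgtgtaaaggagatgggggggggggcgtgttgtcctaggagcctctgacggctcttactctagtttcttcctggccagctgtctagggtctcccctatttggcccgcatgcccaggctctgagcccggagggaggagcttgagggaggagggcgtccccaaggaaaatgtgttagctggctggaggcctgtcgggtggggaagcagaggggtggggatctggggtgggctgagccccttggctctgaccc
Mmp3 was the 1 of these 4 with a match. The windows searched run from 250 bases before to 50 after a start site, and 50 members had 1 or more, 55 windows in all. G and C made up 77.3% of the window of Adamts2, 70.0% in Adamts9, 62.0% in Adamts12 and 40.0% in Mmp3. TGANTCA reads the same on both strands. It was present in 13 of the 55 member windows (23.6%), and in 7.81% of the 32851 windows of all genes. In Mmp20, Adam20 and Adam25 the match was TGAATCA, and in the other members with a match it was TGACTCA or TGAGTCA.

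Most of those matches belonged to 1 neighbourhood. The 10 Mmp genes of chromosome 9 follow each other with 3 other genes between the first and the last, and 8 of the 10 genes, all but Mmp8 and Mmp27, had a window with TGANTCA, which was in 8 of their 12 windows. Mmp12 and Mmp7 each have a further start site whose window held none. These genes are copies of one another, so their windows are not independent. The stretches around the match are shown in chromosome order to let the flanks be compared, with the match in capitals.
Mmp13 (chr9:7272467-7272497, plus strand): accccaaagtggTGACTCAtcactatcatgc
Mmp12 (chr9:7347318-7347348, plus strand): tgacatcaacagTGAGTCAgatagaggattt
Mmp1b (chr9:7388101-7388131, minus strand): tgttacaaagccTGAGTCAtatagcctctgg
Mmp3 (chr9:7445764-7445794, plus strand): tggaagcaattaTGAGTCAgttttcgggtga
Mmp1a (chr9:7464056-7464086, plus strand): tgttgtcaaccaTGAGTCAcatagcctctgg
Mmp10 (chr9:7502267-7502297, plus strand): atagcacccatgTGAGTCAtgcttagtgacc
Mmp20 (chr9:7628124-7628154, plus strand): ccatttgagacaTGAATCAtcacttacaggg
Mmp7 (chr9:7692015-7692045, plus strand): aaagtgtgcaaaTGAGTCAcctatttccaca
Counted from the start site, the match began at -35 in Mmp13, at -46 in Mmp3 and at -95 in Mmp20, the farthest of the 8, and the bases after it were alike in Mmp1a and Mmp1b. Letters of the kind that the melanocyte regulator MITF binds were also searched on both strands, as TCACGTG and TCATGTG, and no match overlapped a TGANTCA. The first, TCACGTG, was in 3.64% of member windows and in 3.77% of all windows, TCATGTG in 5.45% and in 3.77%. The TCACGTG of Adam10, the sheddase gene described below, began at -65 from its start site.
Adam10 (chr9:70678905-70678935, plus strand): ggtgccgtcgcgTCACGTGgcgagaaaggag
A match describes the letters and is not a measured binding site.

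Of the 79 members with a probe, 52 were well above background on all 6 arrays, 11 on 3 to 5, 10 on 1 or 2 and 6 on none. The 63 members seen on at least 3 arrays, whatever the genotype, were tested, and 16 were not. The 6 members above background on no array were Mmp10, Mmp20, Adam2, Adam7, Adam20 and Adam29. They include the enamel protease gene Mmp20 and ADAM genes known from the testis and epididymis. No member was above background on every array of 1 genotype and on none of the other.

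The genotypes were tested against each other with limma over all probes, with Benjamini-Hochberg adjustment. Of the 63 tested members, 0 were called higher and 0 lower at an adjusted p under 0.05, where limma called 0.00544% of the 18368 genes tested, a single gene that is no member. At an unadjusted p under 0.05 limma counted 4 members, 2 higher and 2 lower (6.35%), where 5.41% of all genes passed (2.85% higher, 2.56% lower). The genotypes did not overlap in 6 members, 4 higher and 2 lower in Tg (9.52%), where all genes gave 10.5%, 5.13% higher and 5.41% lower. These shares lie near those of all genes. The median log2 fold change of the tested members was 0.04, with 35 positive and 28 negative. By family, 3 of the 4 members with an unadjusted p under 0.05 were among the 17 tested Adamts genes, 1 was among the 16 Mmp genes, and 0 among the 26 Adam and 4 Timp genes.

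**Figure D1:**
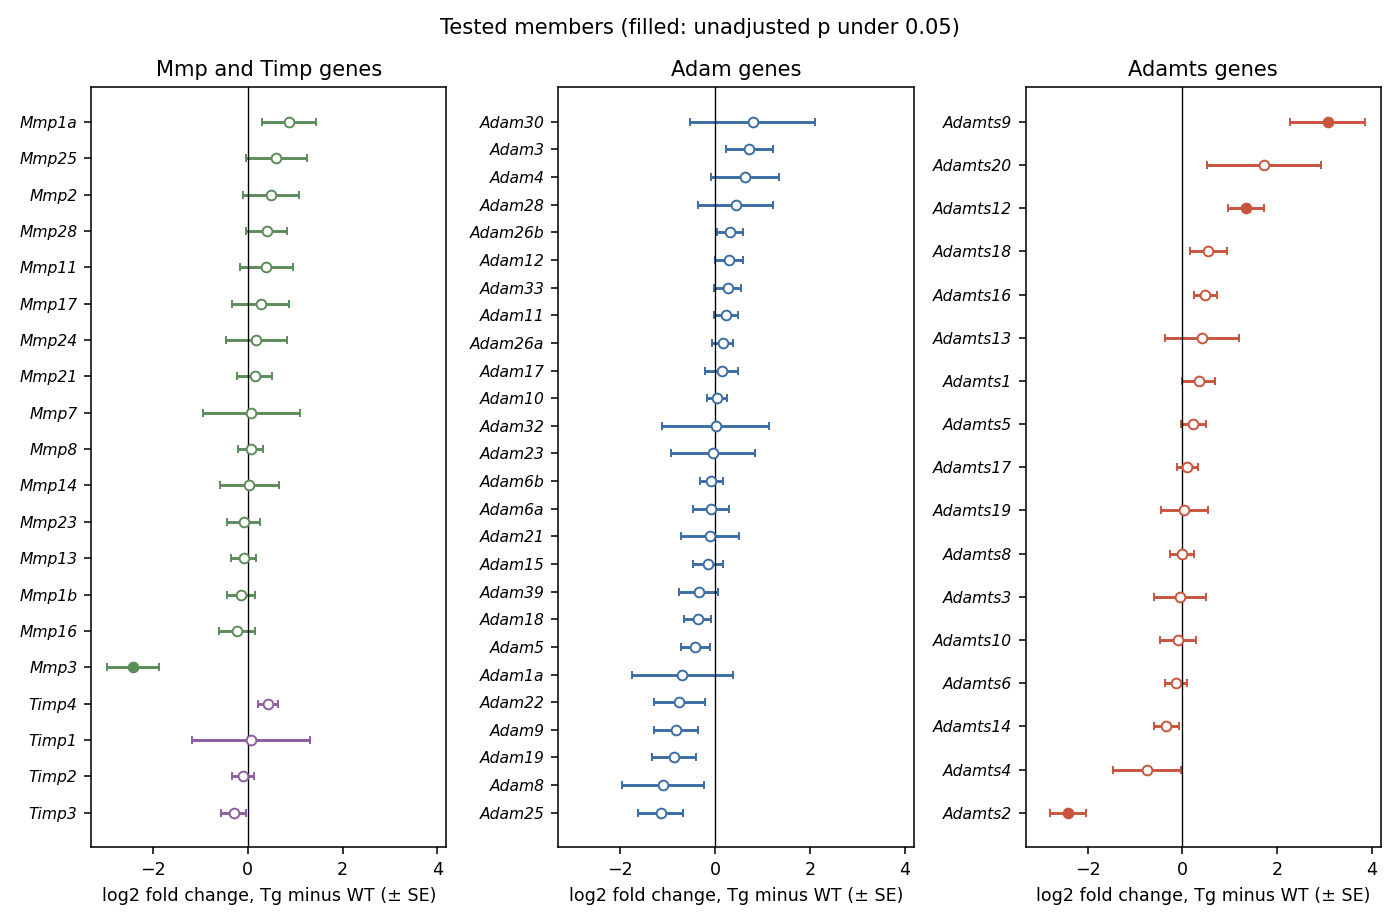
Log2 fold change (K14-SCF Tg minus WT, horizontal axis) with its SE for each of the 63 tested members, by family; filled points have an unadjusted p under 0.05. Adamts9 and Adamts12 lie to the right, Adamts2 and Mmp3 to the left, and no member passed the adjusted test.

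Adamts2 encodes the protease that removes the amino-terminal propeptide of fibrillar procollagens. Its levels were -0.71, -0.58 and -0.56 in WT, and the Tg arrays read -3.22, -3.63 and -2.28. The WT arrays lay close together, and all Tg arrays lay below them. The mean was -0.62 ± 0.08 (SD, n = 3) in WT and -3.04 ± 0.69 (SD, n = 3) in Tg, a log2 fold change of -2.42 (SE 0.38, 5.37-fold), which did not pass (limma, adjusted p = 0.433) and ranked at position 38 of 18368 genes by p. The other Adamts2 probe read -2.23, -4.71 and -4.38 in WT and -3.48, -4.86 and -4.58 in Tg. There the genotypes overlapped, WT replicate 1 stood highest, and the log2 fold change was -0.54 (SE 0.75). With the mean of both probes it was -1.48. The other procollagen N-proteinase genes, Adamts3 and Adamts14, gave -0.06 (SE 0.55) and -0.34 (SE 0.26), so all 3 of the group had negative values and 0 passed.

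Mmp3 encodes stromelysin-1, which degrades proteoglycans and basement membrane proteins and activates other MMP precursors. It read -1.59, -3.62 and -3.13 in WT and -5.32, -5.30 and -4.97 in Tg. All WT arrays were above all Tg arrays, and WT replicate 1, alone on its slide, was the highest. The Tg levels lay near the lowest level well above background on those arrays (-6.23, -6.58 and -6.40). The log2 fold change was -2.42 (SE 0.55, 5.34-fold; limma, adjusted p = 0.595), from -2.78 ± 1.06 in WT to -5.20 ± 0.20 in Tg (SD, n = 3 each), and it did not pass. With slide as a block, so that only the 5 arrays of 1 slide count, it was -1.82 (SE 0.29, adjusted p = 0.520). After normexp background correction followed by quantile normalization it was -1.41. Among the other Mmp genes of the chromosome 9 group, Mmp1a stood at 0.87 (SE 0.57), Mmp1b at -0.14 (SE 0.30), Mmp7 at 0.07 (SE 1.02), Mmp8 at 0.06 (SE 0.26) and Mmp13 at -0.09 (SE 0.26). Their genotypes overlapped in each case, so of 6 tested genes of this group with 9 on the arrays, Mmp3 was the 1 without overlap.

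Adamts9 encodes a secreted protease that cleaves versican and aggrecan, the large proteoglycans of the matrix. Its levels were -5.31, -4.29 and -2.85 in WT and -1.10, -2.12 and -0.05 in Tg. Every Tg array was above every WT array, and within each genotype the row 2 array was the highest. The mean was -4.15 ± 1.24 in WT and -1.09 ± 1.03 in Tg (SD, n = 3 each), with a log2 fold change of 3.06 (SE 0.79, 8.34-fold; limma, adjusted p = 0.666), which did not pass. With the slide row as a covariate the value was the same with an SE of 0.43 (adjusted p = 0.560), and within the larger slide it was 2.48 (SE 0.78). Adamts9 had 1 probe, so no second probe could be set beside it.

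Adamts12, which encodes a protease that cleaves cartilage oligomeric matrix protein, read -3.06, -4.11 and -3.60 in WT and -1.86, -2.16 and -2.76 in Tg. The highest WT and the lowest Tg array lay close together without overlap, and the log2 fold change was 1.33 (SE 0.38, 2.51-fold; limma, adjusted p = 0.745). Its other probe went the other way. That probe read -2.31, -5.18 and -4.41 in WT and -4.90, -4.86 and -4.00 in Tg, which overlap, with a log2 fold change of -0.62 (SE 0.77). With the mean of both probes the value was 0.35 and no longer under an unadjusted p of 0.05 (limma, adjusted p = 0.989).

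**Figure D2:**
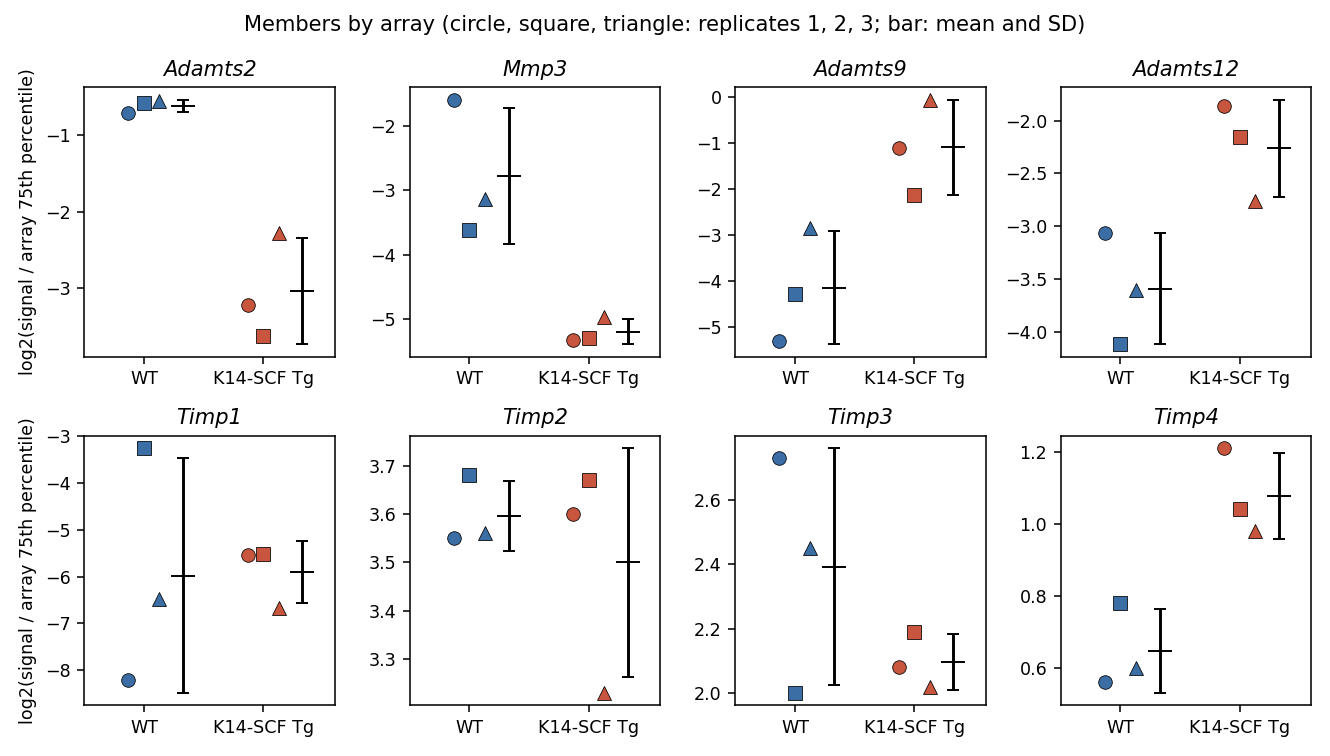
Levels (log2 of signal over the array's 75th percentile, vertical axis, own scale per gene) of the 4 members with an unadjusted p under 0.05 and of the 4 Timp genes on each WT and K14-SCF Tg array; bars are mean and SD. The genotypes do not overlap in Adamts2, Mmp3, Adamts9, Adamts12 and Timp4, and they overlap in Timp1, Timp2 and Timp3.

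The sum of the fibroblast markers separated the same arrays. Adamts2 and Mmp3 lay on the same side as the collagen genes of that list, Col3a1 at -2.31 (SE 0.76), Col1a2 at -1.87 (SE 0.52), Col1a1 at -1.83 (SE 0.69) and Col5a1 at -1.29 (SE 0.44), and as Thy1, a surface glycoprotein gene, at -1.69 (SE 0.34). Adamts9 and Adamts12 lay on the opposite side, with Fap, a fibroblast protease gene, at 2.19 (SE 0.91) and Pdgfra, a fibroblast receptor gene, at 1.26 (SE 0.97). Of the 13 markers, 9 were well above background on all 6 arrays, while Pdgfra and Col6a3 were so on 2 of 3 arrays of each genotype, and Postn and Dpt on 2 WT and 1 Tg arrays. Within WT the log2 of the summed marker level was 6.22, 5.62 and 4.88 in replicates 1 to 3, where Adamts2 read -0.71, -0.58 and -0.56. Mmp3 was highest on the WT array with the highest sum (-1.59), and Adamts9 was lowest there (-5.31) and highest on the WT array with the lowest sum (-2.85). Adamts12 was also highest on the WT array with the highest sum (-3.06). Within Tg the log2 of the summed marker level was 4.54, 3.60 and 3.52 in replicates 1 to 3. On the Tg array with the lowest sum, Mmp3 (-4.97), Adamts2 (-2.28) and Adamts9 (-0.05) were each at their highest Tg level, and Adamts12 was at its lowest (-2.76). The part of the fibroblast markers in these differences was not tested. Markers of other cell types also lay on either side. A sum follows its brightest probes, so single markers are given beside it. The brightest probe of the fibroblast sum was that of Col1a2 (3.71 to 5.13 in WT, 2.12 to 3.45 in Tg). The keratinocyte sum overlapped (6.85 to 7.19 in WT, 7.07 to 7.16 in Tg) and was close to its brightest probe, that of the epidermal regulator gene Trp63 (6.76 to 7.14). Of 9 keratinocyte markers 4 had positive and 5 negative values (median -0.15). The keratin gene Krt17 was the 1 without overlap, at 2.18 (SE 0.72). The leukocyte sum overlapped too (7.35 to 7.73 and 7.59 to 7.68) and was close to the integrin gene Itgam (7.21 to 7.65). Of 9 leukocyte markers 5 had positive and 4 negative values (median 0.04). Tyrobp, an adaptor gene of myeloid cells, was the 1 without overlap, at 2.35 (SE 1.02). Of 6 endothelial markers 5 had negative values (median -0.81), on the side of Adamts2 and Mmp3, among them the vessel genes Egfl7 at -2.03 (SE 0.95) and Cdh5 at -1.78 (SE 1.27), with overlapping genotypes. Of 5 pericyte markers 4 were positive (median 0.30), and Rgs5 stood at -3.82 (SE 1.51). The neutrophil sum, over 3 tested markers, did not overlap, at 0.08 to 0.45 in WT and -0.37 to -0.03 in Tg. It was close to its brightest probe, that of S100a8, whose genotypes overlapped (-0.37 to 0.36 in WT, -0.58 to -0.18 in Tg). Elane of that list stood at 0.10 (SE 0.27), Mpo was not tested and Ly6g had no probe. S100a9, a calcium-binding protein gene of that list, entered the test through its WT arrays alone, above background on 3 WT and 0 Tg arrays. None of these markers passed the adjusted test, and their part in the differences of the members was not tested.

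**Figure D3:**
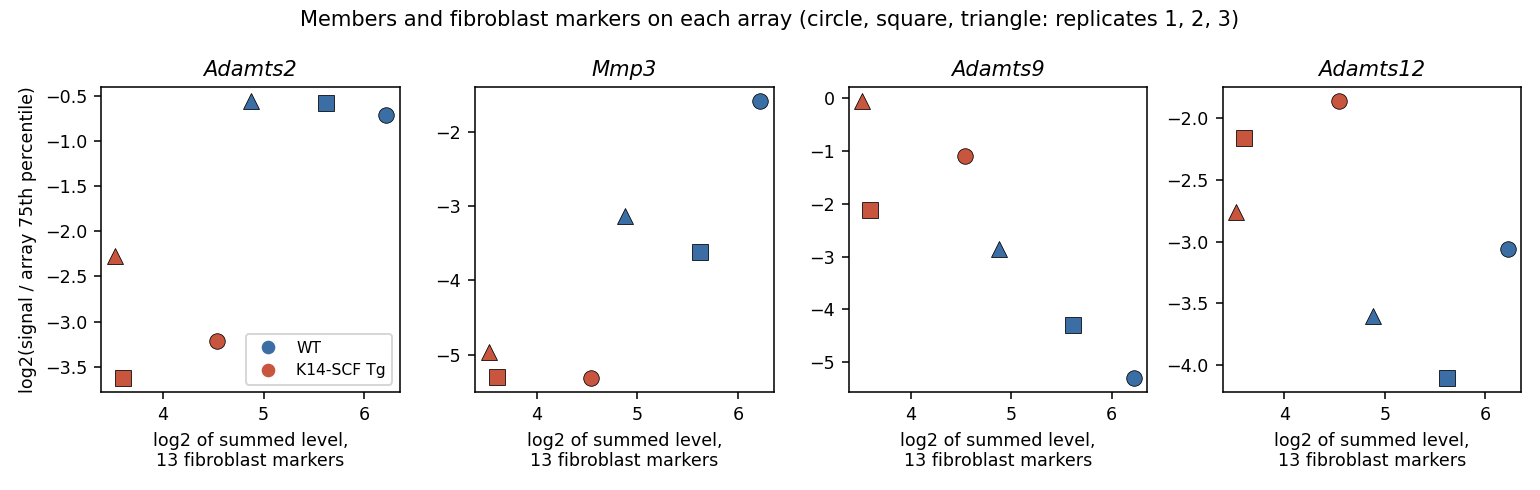
Level of each of the 4 members (vertical axis, log2 of signal over the array's 75th percentile) against the log2 summed level of 13 fibroblast markers on the same array (horizontal axis), WT in blue and K14-SCF Tg in red. The WT arrays lie at 4.88 or more on the horizontal axis and the Tg arrays at 4.54 or less, so this sum and genotype separate together. Its brightest probe is that of Col1a2, and dim markers weigh little in it.

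The other ADAMTS genes gave smaller or less even differences. Adamts20, the belted gene, was above background on 1 WT and 2 Tg arrays, at -6.72, -5.58 and -6.67 in WT and -1.94, -5.21 and -6.65 in Tg. Tg replicate 1 alone was high, 3.27 above the next array, and the log2 fold change of 1.72 had an SE of 1.20. Adamts1, another versican-cleaving protease gene, gave 0.34 (SE 0.34), Adamts5, an aggrecanase gene, 0.23 (SE 0.27) and Adamts8 -0.01 (SE 0.26). Adamts4, also an aggrecanase gene, gave -0.75 (SE 0.72), with WT replicate 3 at 2.30 and the other arrays between -0.72 and 0.44. Of the 6 tested proteoglycan-cleaving members, 4 had positive and 2 negative values. Adamts16 was a member without overlap whose p stayed above 0.05: it read -4.55, -4.22 and -4.45 in WT and -3.66, -4.15 and -3.98 in Tg (log2 fold change 0.48, SE 0.24).

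The ADAM sheddases were measured on nearly all arrays. Adam10 and Adam17 are the main sheddases of Notch receptors and of growth factor precursors, respectively. Adam10 read 3.52, 3.73 and 3.56 in WT and 3.68, 3.74 and 3.51 in Tg, and its SD within a genotype, 0.11, was the smallest of all tested members. The genotypes overlapped, and the log2 fold change was 0.04 (SE 0.21). Adam17 gave 0.14 (SE 0.35) at its brighter and -0.10 (SE 0.40) at its other probe. Adam9, a sheddase known from skin and retina, gave -0.83 (SE 0.47), with WT replicate 3 at 0.60 and the other arrays between -1.45 and -0.72. Adam8, a protease of leukocytes, was seen above background in 3 WT samples and 1 Tg sample, with Tg replicate 2 lowest at -8.64 and the others between -6.01 and -5.29. Of the 9 catalytic sheddases, 5 had positive and 4 negative values (median 0.04), and the smallest p was 0.113 (Adam19).

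Among the remaining ADAM genes, Adam25 had the smallest p, 0.055, at -1.15 (SE 0.48), with overlapping genotypes. The 22 reproductive tract and other ADAMs were unevenly seen: 12 were above background on all 6 arrays and 4 on none, and 14 were tested (median -0.08). Adam20, Adam24, Adam25, Adam26a, Adam26b, Adam34 and Adam39 are close copies, as are Adam1a and Adam1b, Adam6a and Adam6b, and Mmp1a and Mmp1b. A probe of 1 copy could bind the RNA of another, so the identity of these signals is uncertain. The non-catalytic Adam11, Adam22 and Adam23, known from neurons, gave 0.23 (SE 0.25), -0.76 (SE 0.54) and -0.05 (SE 0.89).

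The gelatinase genes, whose products cut denatured collagen and collagen IV, were unevenly seen. Mmp2 read -2.28, -2.75 and -2.63 in WT and -2.40, -0.80 and -3.01 in Tg, where replicate 2 alone was high (log2 fold change 0.49, SE 0.59). Mmp9 was above background on WT replicate 2 alone, at -5.12, and was not tested. Mmp14 encodes the membrane-type protease that activates the Mmp2 precursor. It read 1.70, 0.09 and 0.21 in WT and 1.38, 0.96 and -0.26 in Tg, and the log2 fold change was 0.03 (SE 0.62). The other tested membrane-type genes, Mmp16, Mmp17, Mmp24 and Mmp25, lay between -0.23 and 0.60. Mmp12, the macrophage elastase gene, was seen on 2 Tg arrays and 0 WT arrays, at -5.11 and -3.36, and was not tested.

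Of the inhibitor genes, Timp2, Timp3 and Timp4 were well above background on all 6 arrays. Timp2, whose product also helps Mmp14 to activate Mmp2, read 3.55, 3.68 and 3.56 in WT and 3.60, 3.67 and 3.23 in Tg. Its log2 fold change was -0.10 (SE 0.23), and 0.10 (SE 0.23) at its other probe. Timp3, the matrix-bound inhibitor, read 2.73, 2.00 and 2.45 in WT and 2.08, 2.19 and 2.02 in Tg (log2 fold change -0.30, SE 0.27). Timp4 read 0.56, 0.78 and 0.60 in WT and 1.21, 1.04 and 0.98 in Tg, without overlap. Its log2 fold change was 0.43 (SE 0.21; limma, adjusted p = 0.933), so it did not pass. Timp1, an inhibitor gene that many cells induce, read -8.20, -3.26 and -6.47 in WT and -5.54, -5.51 and -6.67 in Tg. It was above background on 1 WT and 2 Tg arrays, and its SD of 1.83 was among the largest of the members.

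The spread of the members within a genotype was like that of all genes, with a median SD of 0.50 over the tested members and 0.49 over all genes. Besides Adam10, the steady members were Timp4 (0.12), Adamts17 (0.15), Adam26a (0.16), Adamts6 (0.16) and Timp2 (0.17). At the other end were Adam30 (1.95), Timp1 (1.83) and Adamts20 (1.77). In 3 of the 63 tested members (4.76%, against 2.46% of all genes) 1 array lay at least 2 log2 units above the next: Adam30 and Timp1 in WT replicates 3 and 2, and Adamts20 in Tg replicate 1. The same held for 4 of the 16 members not tested, Adam1b, Adam34l, Mmp15 and Mmp19. This gap of 2 was chosen after the values were seen.

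Both row 2 arrays lay apart from all row 1 arrays in 10 members, 6 above and 4 below (15.9%), against 23.8% of all genes, 12.3% above and 11.5% below. The widest gap was that of Mmp24, a membrane-type gene of neurons, at 0.58, 0.56 and -1.21 in WT and 0.48, 0.74 and -0.77 in Tg. Replicate 3 was the lowest of both genotypes. Its other probe did not share this, with -1.55, -1.58 and -1.12 in WT and -1.31, -1.59 and -1.32 in Tg. Mmp16 came next, with -2.14 and -2.41 in row 2 and -1.65 to -1.23 in row 1. The gaps of Mmp8 (-0.17), Adam8 (0.21), Adam26b (0.10) and Adamts4 (0.09) were small. Row and replicate number cannot be told apart here.

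Different probes of a member often disagreed. Of 16 members with several tested probes, 11 had probes of opposite sign. The widest differences were those of Adamts12 and Adamts2 (above) and of Adamts5, at 0.23 (SE 0.27) and -0.81 (SE 1.32), whose dimmer probe was above background on 2 WT arrays and 1 Tg array.

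**Figure D4:**
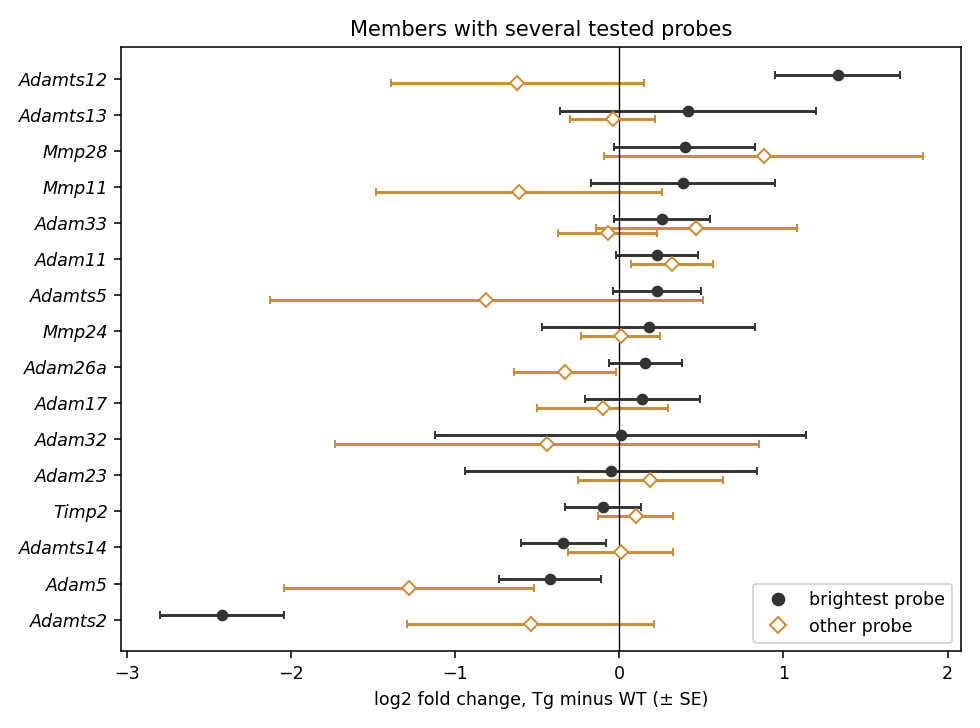
Log2 fold change (K14-SCF Tg minus WT, horizontal axis) with its SE for each tested probe of the 16 members with several; filled circles are the brightest probe, open diamonds the others. Both probes of Adamts2 lie below 0, and those of Adamts12 lie on opposite sides.

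Genes that act around these proteases were read from lists, each by its brightest tested probe. Several of those named, Pcsk5, Aph1a, Tspan5, Adamtsl1, Lama3 and Vcan, had further tested probes whose values are not shown. None of their genes passed the adjusted test (limma, smallest adjusted p = 0.719). The 17 tested activators and inhibitors of protease cascades had a median log2 fold change of 0.03. Serpine2, a serine protease inhibitor gene, gave 0.79 (SE 0.37), and Pcsk5, a proprotein convertase gene, 3.21 (SE 1.38), with 2 Tg arrays high and the third at the WT level. Among 13 regulators of ADAM10 and ADAM17 and subunits of gamma-secretase, which cuts after them, 0 were higher and 1 lower at an unadjusted p under 0.05 (median -0.17). That was Aph1a, a gamma-secretase subunit gene, at -0.81 (SE 0.33). Tspan14 and Tspan5, tetraspanin genes whose products escort ADAM10, gave -0.50 (SE 0.27) and 0.68 (SE 0.46).

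Of 16 related metalloproteinase and ADAMTS-like genes (median -0.10), 2 were higher and 0 lower at an unadjusted p under 0.05, and 1 of these 2, Mep1b, entered the test through its Tg arrays alone. Adamtsl1, a matrix protein gene without the protease part, read -1.99, -2.02 and -1.85 in WT and -1.47, -1.24 and -1.16 in Tg, without overlap (log2 fold change 0.67, SE 0.22). Mep1b, a meprin protease gene, was above background on 0 WT and 3 Tg arrays, at -6.33, -6.36 and -5.96 in WT and -5.95, -2.42 and -2.90 in Tg. Tg replicate 1 lay at the WT level and the other two Tg arrays were high, so no fold is given. Among 24 tested ligands and receptors that are shed from the cell surface, 2 were higher and 0 lower (median 0.01), the adhesion gene L1cam at 0.90 (SE 0.29) and the tumour necrosis factor receptor gene Tnfrsf1b at 2.53 (SE 0.87). Among 24 tested matrix substrates, 1 was higher and 4 lower (median -0.08). The higher one was Lama3, a laminin chain gene, at 0.79 (SE 0.27), and the lower ones were Col1a1, Col1a2, Col3a1 and Col5a1, 4 of the fibroblast markers. Vcan, the versican gene, gave -1.19 (SE 0.57) with overlapping genotypes. The shares at an unadjusted p under 0.05 over all genes are those given above.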

How the data were processed

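In all, 6 1-colour Agilent mouse arrays were used, 3 WT and 3 K14-SCF Tg, read with Agilent Feature Extraction 10.7.1.1 per the file headers and the submitters' processing notes. Per the file headers, the intensity values are the processed signal, after background subtraction and without scaling across arrays, and the spot and background medians. The quality flags were taken as deposited. The authors also deposited a value table whose unit is a linear ratio, the processed signal over 1 constant per array (1404.6 to 1678.0, at least 99.72% of values within 0.001), with column medians of 0.170, 0.177 and 0.169 (WT) and 0.184, 0.188 and 0.176 (Tg). The constant's definition was not stated.

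Outlier and control spots were left out, spots of a probe averaged, and log2 of the signal taken minus that of the array's 75th percentile. Of 29786 probes with a RefSeq accession, 28331 matched the GRCm38.p6 gene table (the design refers to mm9). The 47709 probes well above background on 3 or more arrays, with 3 outliers already left out, were fitted with limma 3.58.1 in R 4.3.3 (2-sided, no covariates, threshold 0.05, adjusted over all tested probes). The steps were tested on simulated data. The number of arrays limits the precision. Replicate numbers were not used to pair the samples in the main fit. Deviations of same-numbered arrays correlated at 0.019, 0.052 and 0.131, and those of differently numbered arrays at -0.098 to 0.055. The highest value was that of the replicates numbered 3, which share row 2 of a slide. Members, gene lists and member groups were chosen with earlier results of these data known. Named members were all Timp genes, those with an unadjusted p under 0.05, Adam10, Adam17, Mmp2, Mmp3, Mmp9, Mmp14, Adamts2, Adamts9 and Adamts20, up to 3 per direction by row gap, the 3 with the widest probe difference, and up to 3 genes per list; other genes were named after their values were seen. Alternatives covered normalization, background correction, deposited values, filters, probes per gene, slide, row, replicate block, variance model and each array left out. A planned search of protein motifs was not run because no protein sequences were used here. A gene of the lists is not reported here.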

Additional observations from a re-analysis of the deposited data

How the results depend on the processing

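Of 18 alternatives, 6 left out 1 array each. Members called at an adjusted p under 0.05 numbered 0 in all of them. Of 20 named members tested, 9 kept their direction throughout, among them Adamts2 (-2.81 to -1.48), Mmp3 (-2.84 to -1.41), Adamts9 (2.26 to 3.71) and Adamts12 (0.35 to 1.59). The 1 gene called higher became 0 with normexp and quantile normalization, the filter on all 6 arrays, the mean of probes, the slide block, the row covariate, without row 2, with the trended robust variance and with the replicate block, where limma still counted 2 members higher and 2 lower at an unadjusted p under 0.05; with any array left out it was also 0. With the mean of probes 1 member was higher at an unadjusted p under 0.05. Members without overlap and lower in Tg numbered 4 with quantile normalization, 5 with median centring, 4 with normexp and 11 without row 2 (13 higher); with 1 array left out, 4 to 10 were higher and 4 to 8 lower, where fewer arrays overlap less often.

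Median centring shifts the median of all genes to -0.10. Timp1 reversed with quantile normalization (-0.06), median centring (-0.01), normexp (-0.30) and the slide block (-1.04), Timp2 without row 2 (0.19), Adam10 and Mmp14 with median centring (-0.05 each), Mmp8 with quantile normalization (-0.05), median centring (-0.03) and normexp (-0.03), and Adamts5 with the mean of probes (-0.29). With 1 array left out, ranges crossed 0 for Adam10 (-0.01 to 0.10), Adam17 (-0.10 to 0.36), Adamts4 (-1.16 to 0.01), Mmp14 (-0.31 to 0.55), Mmp16 (-0.49 to 0.05), Mmp2 (-0.14 to 0.96), Mmp24 (-0.42 to 0.64), Mmp8 (-0.12 to 0.20), Timp1 (-1.04 to 1.43) and Timp2 (-0.18 to 0.12). The cause was not tested. Signal near background limits the 11 members seen on 3 to 5 arrays, and also some seen on all 6, such as Mmp3 in Tg.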
